A study of Mus musculus with 3 samples.

Results

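The 9 genes described here encode the receptor chains, the signal transducers and some of the best known target genes of the leukaemia inhibitory factor (LIF) pathway: Lifr, Il6st, Jak1, Jak2, Stat3, Socs3, Pim1, Pim2 and Pim3. They were chosen by gene symbol, and all 9 were found among 22180 genes measured on Affymetrix Mouse Gene 2.0 ST arrays. The study holds 3 cultures of mouse pluripotent stem cells in serum-free N2B27 medium, with 1 array for each. The mEpiSC culture, mouse epiblast stem cells induced from the mouse embryonic stem cell (mESC) line EB3, received 20 ng/ml Activin A, a ligand that signals through SMAD2/3, and 12 ng/ml bFGF, a fibroblast growth factor that activates ERK. The Activin+PD culture, EB3 mESCs kept for 64 days, received 20 ng/ml Activin A and 2 µM PD0325901, an inhibitor of the ERK-activating kinase MEK. The 2i culture, EB3 mESCs kept for 34 days, received 2 µM PD0325901 and 2 µM CHIR99021, an inhibitor of GSK3 that stabilises beta-catenin. No LIF is listed for any of the 3 media. All cultures go back to a single cell line, and the labels do not describe how the mEpiSCs were induced. Days in culture and medium cannot be told apart between the mESC cultures, nor cell state and medium between the mEpiSCs and the mESCs.

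LIF binds a receptor made of LIFR, the chain specific to the LIF family, and gp130, the chain encoded by Il6st and shared by the cytokines of the interleukin-6 family. The receptor activates Janus kinases, which phosphorylate STAT3, and STAT3 then enters the nucleus and switches on target genes, among them its own inhibitor Socs3 and the serine/threonine kinases of the PIM family. In mESCs this pathway supports self-renewal of the naive state, which 2i medium can sustain without added LIF, whereas epiblast stem cells of the primed state depend on Activin and FGF.

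Marker genes were set against the labels first. Of 6 naive markers (Zfp42, Esrrb, Tfcp2l1, Nr0b1, Tbx3 and Klf2), all were at least 2-fold lower in mEpiSC than in either mESC culture, and of 6 primed markers 5 were at least 2-fold higher in mEpiSC than in 2i and 4 than in Activin+PD. Of 5 primed markers compared between the mESC cultures, Fgf5 at 1.48 and Otx2 at no less than 2.22 (log2) were higher in Activin+PD than in 2i. The others were within 2-fold, with Sox3 at 0.32, Pou3f1 at 0.24 and Dnmt3b, lower in Activin+PD, at -0.60. The 4 general pluripotency markers (Pou5f1, Sox2, Nanog and Sall4) were above background on every array, but Nanog and Sox2 were at least 2-fold lower in mEpiSC than in either mESC culture, Nanog at -1.99 against 2i and -2.25 against Activin+PD, and Sox2 at -1.17 and -1.39. The 10 fibroblast markers, chosen as a check for feeder cells, had a summed intensity of 762 in mEpiSC, 566 in Activin+PD and 554 in 2i, with 6 of 10 above background on each array. Their members Dcn, Lum, Postn and Fap were not above background on any array, while Twist1 was higher in mEpiSC by 1.52 (log2) than in 2i. The 6 primitive endoderm markers summed to 511 in mEpiSC, 376 in Activin+PD and 362 in 2i, with Gata6 above background in mEpiSC and on neither mESC array. The part of these markers in the values below was not tested.

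Each value is the deposited intensity of a probe set or its log2. Olfactory and vomeronasal receptor genes, with 1400 probe sets, served to set the background at their 95th percentile, which was an intensity of 47.6 in mEpiSC, 45.4 in Activin+PD and 48.2 in 2i. All 9 genes were above it on all 3 arrays. With 1 array per culture there was no spread between replicates and no test, so "higher" and "lower" describe these arrays. The disagreement between probe sets of the same gene, over 496 genes, gave a technical yardstick (log2, SD) of 0.33 when mEpiSC was compared with 2i, 0.30 for mEpiSC minus Activin+PD and 0.24 for Activin+PD minus 2i. It does not cover variation between cultures.

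**Figure D1:**
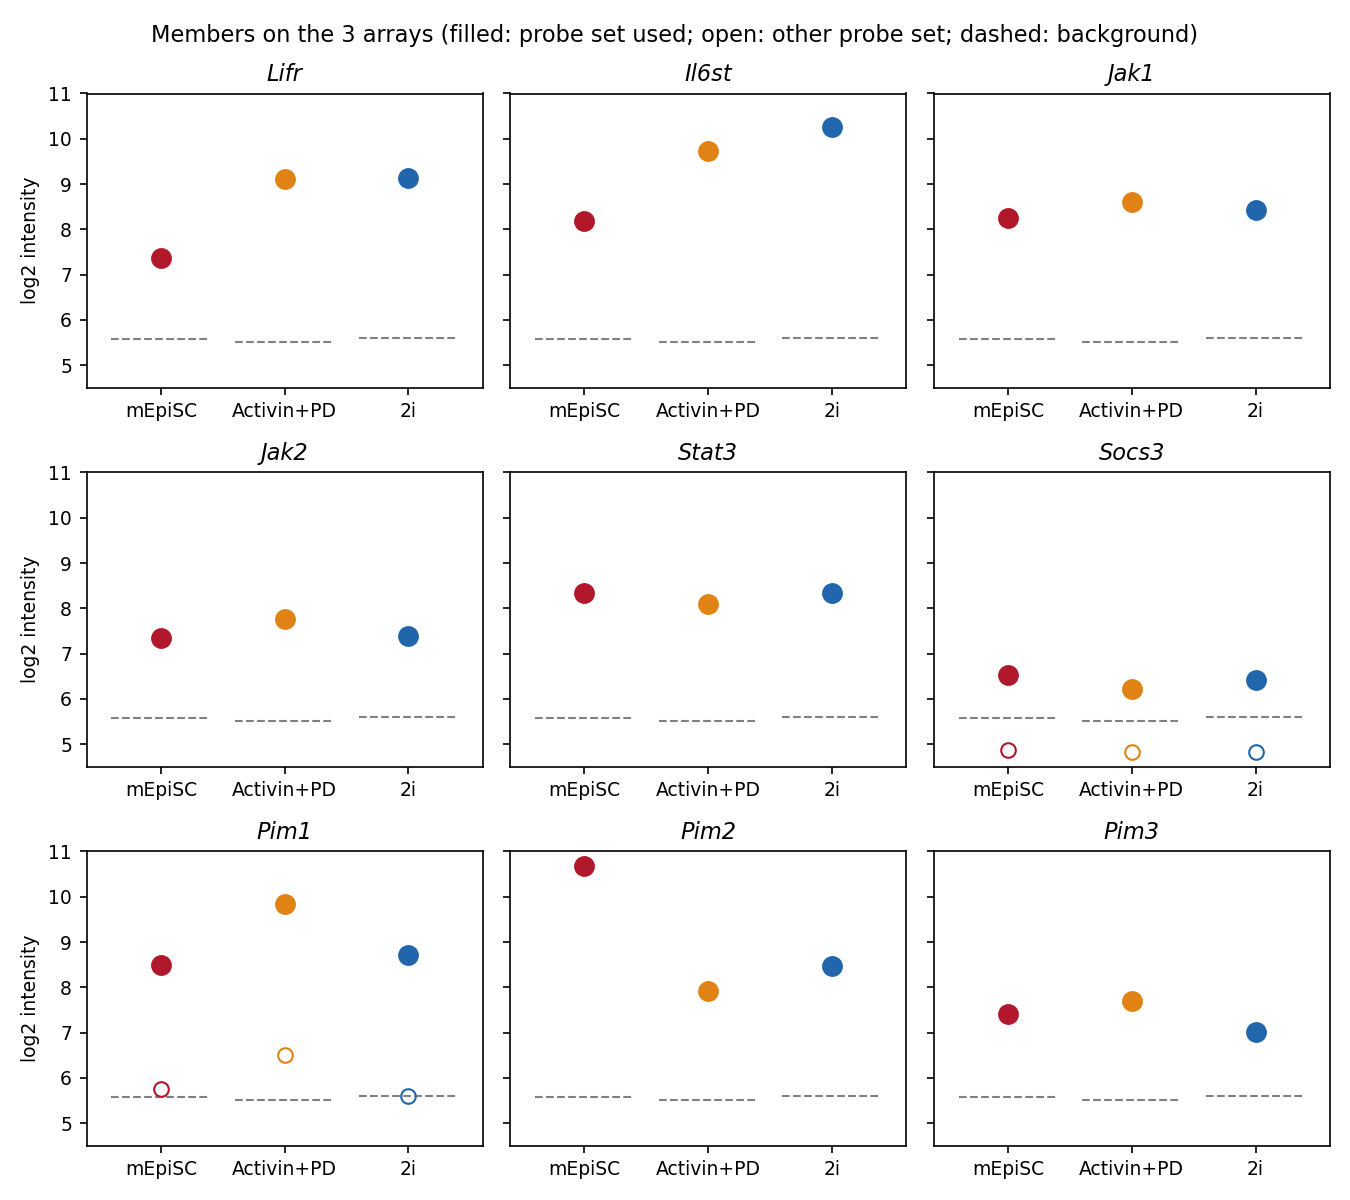
Log2 intensity (y axis) of the 9 genes on the mEpiSC, Activin+PD and 2i arrays (x axis), 1 point per array. Filled points are the probe set used, open points the other probe set of Socs3 and of Pim1, and dashed lines the background of each array. Lifr and Il6st are lowest in mEpiSC, Pim2 is highest there and Pim1 is highest in Activin+PD, whereas Jak1, Jak2, Stat3 and Socs3 have ranges of 0.26 to 0.41 over the 3 arrays.

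The 9 genes differed in how far apart the cultures lay. Over the 3 arrays, the range of log2 intensity was 2.76 for Pim2, 2.07 for Il6st, 1.76 for Lifr and 1.35 for Pim1. Among 14526 genes above background on at least 1 array, 98.7% had a smaller range than Pim2, 97.3% than Il6st, 95.7% than Lifr and 92.7% than Pim1. Pim3 had a range of 0.68. The range was 0.41 for Jak2, 0.34 for Jak1, 0.31 for Socs3 and 0.26 for Stat3, which lay near the middle of all genes: 38.2% had a smaller range than Stat3 and 59.7% than Jak2.

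The first comparison set mEpiSC against 2i, the primed against the naive state. Both receptor genes were lower and Pim2 was higher in mEpiSC, while the Janus kinase genes, Stat3, Socs3, Pim1 and Pim3 were within 2-fold. That is 3 of 9 genes at least 2-fold apart, 1 higher and 2 lower, against a background of 9.5% of 14200 genes compared (4.54% higher and 4.96% lower). The median difference of the 9 genes was -0.038 (log2), against 0.031 over all genes compared. The second comparison, mEpiSC against Activin+PD, asks the same of mESCs that share Activin A with the mEpiSCs. Here 4 of 9 genes were at least 2-fold apart, Pim2 higher and Lifr, Il6st and Pim1 lower, against 8.97% of 14375 genes (3.59% higher and 5.38% lower), with a median of -0.34 against 0.042. The third comparison, Activin+PD against 2i, sets the mESC media against each other. Pim1 alone of the 9 genes was at least 2-fold apart and was higher, against 2.2% of 14003 genes (1.38% higher and 0.821% lower), with a median of -0.010 against -0.0056. The comparisons share arrays, so they are not independent of each other.

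**Figure D2:**
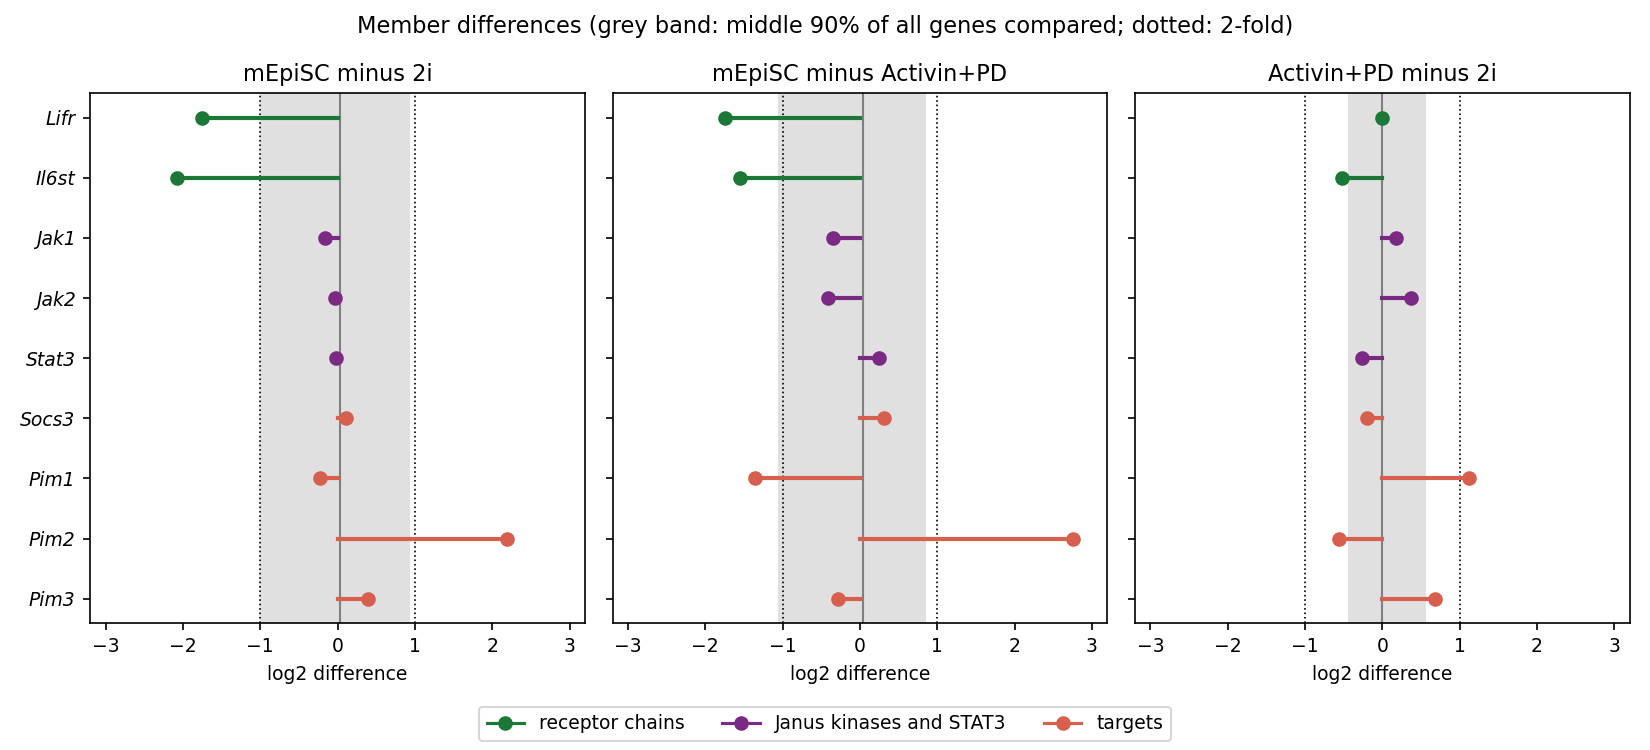
Log2 difference (x axis) of each gene (y axis) in the 3 comparisons, coloured by role. Grey bands span the middle 90% of all genes compared, grey lines their median and dotted lines 2-fold. In both comparisons with mEpiSC, Lifr and Il6st lie left of the band and Pim2 right of it, and Pim1 at -1.35 also lies left of it against Activin+PD. For Activin+PD minus 2i, Pim1 at 1.12 and Pim3 at 0.68 lie right of the band, and Il6st at -0.52 and Pim2 at -0.56 left of it.

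Lifr had an intensity of 165 in mEpiSC, 554 in Activin+PD and 558 in 2i. The mESC arrays lay together, 0.010 apart on the log2 scale, and mEpiSC stood below both. The difference was -1.76 against 2i and -1.75 against Activin+PD, a level lower by 3.38-fold and 3.36-fold, or 5.33 and 5.87 times the probe set yardstick. In the first of these comparisons 1.89% of genes were lower still. Lifr was at 3.47 times background in mEpiSC, 12.2 times in Activin+PD and 11.6 times in 2i. In whole cultures, fewer cells with the RNA and less RNA per cell cannot be told apart, here and for every gene below.

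Il6st, the gp130 gene, had an intensity of 290 in mEpiSC, 848 in Activin+PD and 1220 in 2i. Its mEpiSC value was the lowest, as for Lifr, but the mESC arrays did not lie together. The difference was -2.07 (4.21-fold lower) for mEpiSC minus 2i and -1.55 (2.93-fold lower) for mEpiSC minus Activin+PD. Between the mESC media it was -0.52, a level 1.44-fold lower in Activin+PD and 2.14 times the yardstick, within 2-fold, with 3.33% of genes lower still. Il6st was at 6.09 times background in mEpiSC, 18.7 times in Activin+PD and 25.3 times in 2i.

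The transducers were within 2-fold in all comparisons, and 4 of their 9 differences were larger than the yardstick. Jak1, the Janus kinase that gp130 signalling chiefly depends on, had an intensity of 306 in mEpiSC, 388 in Activin+PD and 342 in 2i. Its differences were -0.16 for mEpiSC minus 2i, -0.34 for mEpiSC minus Activin+PD and 0.18 for Activin+PD minus 2i. That for mEpiSC minus Activin+PD was 1.15 times the yardstick, and the others were smaller than it. Jak2, which also serves the receptors of erythropoietin and growth hormone, had 163 in mEpiSC, 217 in Activin+PD and 167 in 2i. Activin+PD was the highest, with -0.41 for mEpiSC minus Activin+PD and 0.38 for Activin+PD minus 2i, or 1.39 and 1.54 times the yardstick. In the comparison of the mESC media, 90.7% of genes lay below Jak2. Stat3, the transcription factor itself, had 321 in mEpiSC, 271 in Activin+PD and 326 in 2i. Activin+PD was here the lowest, with 0.24 for mEpiSC minus Activin+PD and -0.26 for Activin+PD minus 2i (1.08 times the yardstick), while mEpiSC minus 2i was -0.022, or 0.066 times the yardstick. These are RNA levels, and phosphorylation of STAT3 was not measured.

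Socs3, whose protein binds gp130 and blocks the Janus kinases, lay close to background, at 1.93 times background in mEpiSC, 1.63 times in Activin+PD and 1.76 times in 2i. Its intensity was 91.7 in mEpiSC, 74.1 in Activin+PD and 84.9 in 2i. The highest value was that of mEpiSC, where both receptor genes were lowest, but the differences were small: 0.11 for mEpiSC minus 2i, 0.31 for mEpiSC minus Activin+PD, 1.03 times the yardstick, and -0.20 for Activin+PD minus 2i. A second probe set of Socs3 was not above background on any array, with log2 levels of 4.87 in mEpiSC, 4.83 in Activin+PD and 4.82 in 2i.

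The 3 Pim genes encode closely related kinases that promote survival and growth and need no phosphorylation to become active. Pim2 was highest in mEpiSC, while Pim1 and Pim3 were highest in Activin+PD. Pim1 had an intensity of 359 in mEpiSC, 919 in Activin+PD and 422 in 2i. Activin+PD stood alone above the other arrays, which were 0.23 apart. The difference was -1.35 for mEpiSC minus Activin+PD (2.56-fold lower) and 1.12 for Activin+PD minus 2i (2.18-fold higher), which placed Pim1 at rank 150 from the top of 14003 genes in the comparison of the mESC media. The second probe set of Pim1 was dimmer and also put Activin+PD highest, with 53.6 in mEpiSC, 91.4 in Activin+PD and 48.0 in 2i. Its value in 2i was just below background. It gave -0.77 for mEpiSC minus Activin+PD, and against the background in 2i Activin+PD was higher by at least 0.92 (log2).

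Pim2 had an intensity of 1636 in mEpiSC, 242 in Activin+PD and 357 in 2i. It was the single gene of the 9 that was at least 2-fold higher in mEpiSC, and its mEpiSC value was 34.4 times background. The difference was 2.20 (4.58-fold) for mEpiSC minus 2i, rank 113 of 14200 genes, and 2.76 (6.77-fold) for mEpiSC minus Activin+PD, rank 41 of 14375. These were 6.65 and 9.26 times the yardstick. Between the mESC media Pim2 was lower in Activin+PD, at -0.56 or 1.48-fold, with 2.88% of genes lower still. In that comparison Pim1 and Pim2 stood on opposite sides of 0, as they did for mEpiSC minus Activin+PD.

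Pim3 had an intensity of 169 in mEpiSC, 206 in Activin+PD and 129 in 2i. It was highest in Activin+PD, as Pim1 was, and lowest in 2i. The probe set used for Pim1 was lowest in mEpiSC, but the second probe set of Pim1 was lowest in 2i. The difference was 0.68 for Activin+PD minus 2i (1.6-fold higher, 2.77 times the yardstick), with 96.7% of genes below it. In mEpiSC it was 0.39 against 2i and -0.29 against Activin+PD, all within 2-fold.

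Promoter windows from RefSeq (build GRCm38.p6, 250 bases before to 50 after a start site) matched all 9 genes, with 11 windows in all because Lifr and Pim1 have 2 starts each. The 3 motifs were searched on both strands, chosen after the windows had been read: TTCNNNGAA, the palindrome that STAT proteins bind, ATGCAAAT, the octamer bound by POU factors such as the product of Pou5f1, and CTTTGAT, a form of the TCF/LEF motif. Among all 32851 windows, 8.3% held the STAT motif, 1.74% the octamer and 3.73% the TCF/LEF form. Of the 11 windows, 1 held the STAT motif, that of Socs3. The window of Pim2 held 2 octamers and 1 TCF/LEF match, none of which overlapped, and 0.107% of all windows held 2 or more octamers. As the motifs were chosen with the windows in view, this share does not measure how unusual the Pim2 window is. Pim1 and Pim2 are shown because they are the Pim genes that were at least 2-fold apart, on opposite sides of 0 for mEpiSC minus Activin+PD, and Socs3 as the feedback gene. Capitals mark the motif matches, 154 bases before the start in Socs3, and 202 and 123 bases (octamers) and 65 bases (TCF/LEF) before it in Pim2. Neither window of Pim1 held any of the 3, and only the first by position is shown. The windows shown are chr11:117969317-117969616 on the minus strand for Socs3, and chr17:29490535-29490834 and chrX:7878056-7878355 on the plus strand for Pim1 and Pim2. A match is a description of the letters in the window and no binding was measured.
Socs3: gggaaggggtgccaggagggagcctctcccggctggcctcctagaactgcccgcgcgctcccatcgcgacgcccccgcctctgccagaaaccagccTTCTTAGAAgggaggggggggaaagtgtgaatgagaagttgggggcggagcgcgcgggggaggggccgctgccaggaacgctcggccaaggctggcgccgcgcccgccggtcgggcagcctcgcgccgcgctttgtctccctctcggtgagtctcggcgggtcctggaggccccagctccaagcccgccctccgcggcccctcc
Pim1: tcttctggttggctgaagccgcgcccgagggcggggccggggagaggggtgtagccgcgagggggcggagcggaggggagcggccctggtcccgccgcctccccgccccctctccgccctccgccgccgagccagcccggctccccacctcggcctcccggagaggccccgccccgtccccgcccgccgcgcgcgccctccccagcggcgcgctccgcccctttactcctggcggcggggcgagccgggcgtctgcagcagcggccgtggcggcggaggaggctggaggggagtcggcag
Pim2: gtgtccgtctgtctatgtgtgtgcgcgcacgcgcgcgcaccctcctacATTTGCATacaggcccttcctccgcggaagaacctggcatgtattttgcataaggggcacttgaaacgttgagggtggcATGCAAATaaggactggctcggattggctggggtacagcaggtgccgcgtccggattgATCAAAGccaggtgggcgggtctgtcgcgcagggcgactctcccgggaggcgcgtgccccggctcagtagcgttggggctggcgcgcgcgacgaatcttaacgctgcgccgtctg

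For the 3 genes with the widest range, the most similar profiles were looked for among 12618 other genes above background on all 3 arrays, by the Euclidean distance between log2 profiles centred on their own mean. A profile over 3 arrays is a coarse description. Nearest to Pim2 was Dnmt3b, a de novo DNA methyltransferase that is high in the primed state, at a distance of 0.11 and with log2 levels of 11.60 in mEpiSC, 8.95 in Activin+PD and 9.54 in 2i. Prickle1, a planar polarity gene, and Rapgef5, an exchange factor for RAP proteins, followed at 0.20 and 0.24. Nearest to Il6st were Sfmbt2 at 0.064, As3mt at 0.080 and Nfatc2ip at 0.090. Nearest to Lifr were Fam169b at 0.022, Trap1a at 0.046 and Zfhx2 at 0.061.

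Of 52 other genes of the pathway, in 5 lists by role, 48 were on the array. Of 44 compared between mEpiSC and 2i, 4 were at least 2-fold higher and 6 lower, with a median of 0.0070. Between mEpiSC and Activin+PD these counts were 5 higher and 7 lower of 43, with a median of 0.042, and between Activin+PD and 2i 1 higher and 2 lower of 44, with a median of -0.014. In percent this was 22.7%, 27.9% and 6.82%, against the 9.5%, 8.97% and 2.2% of all genes given above. Members of these lists include markers of the naive state, such as Klf4 and Tfcp2l1.

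Of the ligands, 0 of 4 compared were at least 2-fold apart between mEpiSC and 2i, 0 of 3 between mEpiSC and Activin+PD and 0 of 4 between Activin+PD and 2i. With 9.5%, 8.97% and 2.2% of all genes apart, so few ligands cannot be told from the background. Lif itself had a log2 level of 6.66 in mEpiSC, 6.66 in Activin+PD and 6.51 in 2i, with no difference over 0.15. It was above background everywhere but close to it. The intensity was 101 in mEpiSC, 101 in Activin+PD and 91.4 in 2i, against backgrounds of 47.6, 45.4 and 48.2. Low signal limits these differences, as it does for Socs3. The co-receptors that pair with gp130 for other ligands went different ways. Il6ra, the binding chain for interleukin-6, stood at 6.49 in mEpiSC, 7.28 in Activin+PD and 8.21 in 2i, the same order as Il6st, with a difference of -1.72 for mEpiSC minus 2i. Cntfr, the binding chain for ciliary neurotrophic factor, whose signalling complex also holds LIFR and gp130, ran the other way, at 8.95 in mEpiSC, 8.03 in Activin+PD and 7.48 in 2i, with a difference of 1.47 for mEpiSC minus 2i.

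Among the other STAT genes, Stat4, which carries interleukin-12 signals in lymphocytes, was the farthest apart. Its log2 level was 6.32 in mEpiSC, 9.50 in Activin+PD and 8.30 in 2i, differences of -1.98 for mEpiSC minus 2i, -3.18 for mEpiSC minus Activin+PD and 1.20 for Activin+PD minus 2i. Activin+PD was highest, as for Pim1, and mEpiSC was lowest. For Pim1, mEpiSC minus 2i was only -0.23, or 0.70 times the yardstick, and its second probe set was lowest in 2i. Stat2, a mediator of interferon signalling, was lower in mEpiSC than in Activin+PD, at -1.13. Stat5a and Stat5b stayed within 0.26 in all comparisons.

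Of 16 inhibitors, 1 was at least 2-fold apart between mEpiSC and 2i, 2 between mEpiSC and Activin+PD and 0 between Activin+PD and 2i, or 6.25%, 12.5% and 0%, against 9.5%, 8.97% and 2.2% of all genes. Socs2, a relative of Socs3 that restrains growth hormone signalling, had a log2 level of 9.39 in mEpiSC, 8.34 in Activin+PD and 8.44 in 2i, higher in mEpiSC by 1.05 than in Activin+PD and by 0.95 than in 2i. Its second, dimmer probe set gave 0.27 and 0.33 for these differences. Socs1 differed by 0.29 for mEpiSC minus 2i and by 0.22 for mEpiSC minus Activin+PD. Pias2, of the family of inhibitors and SUMO ligases of STAT proteins, stood at 9.86 in mEpiSC, 11.45 in Activin+PD and 11.42 in 2i, and was lower in mEpiSC, at -1.59 against Activin+PD and -1.56 against 2i.

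The further STAT3 targets had members on both sides. Of 15 compared, 3 were at least 2-fold higher and 3 lower in mEpiSC than in 2i (median -0.031), and 4 were higher and 4 lower in mEpiSC than in Activin+PD (median 0.029). That is 40% and 53.3% of the list, against 9.5% and 8.97% of all genes, and the list holds the naive markers Klf4 and Tfcp2l1. Lower in mEpiSC in both comparisons were Klf4, at -2.08 and -1.81, the histone demethylase gene Kdm3a, at -1.36 and -1.22, and Tfcp2l1, by at least 4.64 and 4.69, since it was not above background in mEpiSC. Klf5 was lower, at -1.13, against Activin+PD and stood at -0.75 against 2i. Higher in mEpiSC were Myc, at 2.13 and 1.92, Zfp36, whose protein destabilises AU-rich mRNAs, at 2.13 and 1.66, and the immediate early gene Ier3, at 1.04 and 1.07. Myc, Zfp36 and Ier3 are also known as genes that ERK signalling induces, and the part of ERK signalling in their values was not tested. Between Activin+PD and 2i, Gbx2 was lower, at -1.07 (its second probe set gave -0.49), and so was Sp5, which is also a target of beta-catenin, at -1.44. Sp5 was higher in mEpiSC than in Activin+PD, by 1.18, and stood at -0.26 against 2i.

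**Figure D3:**
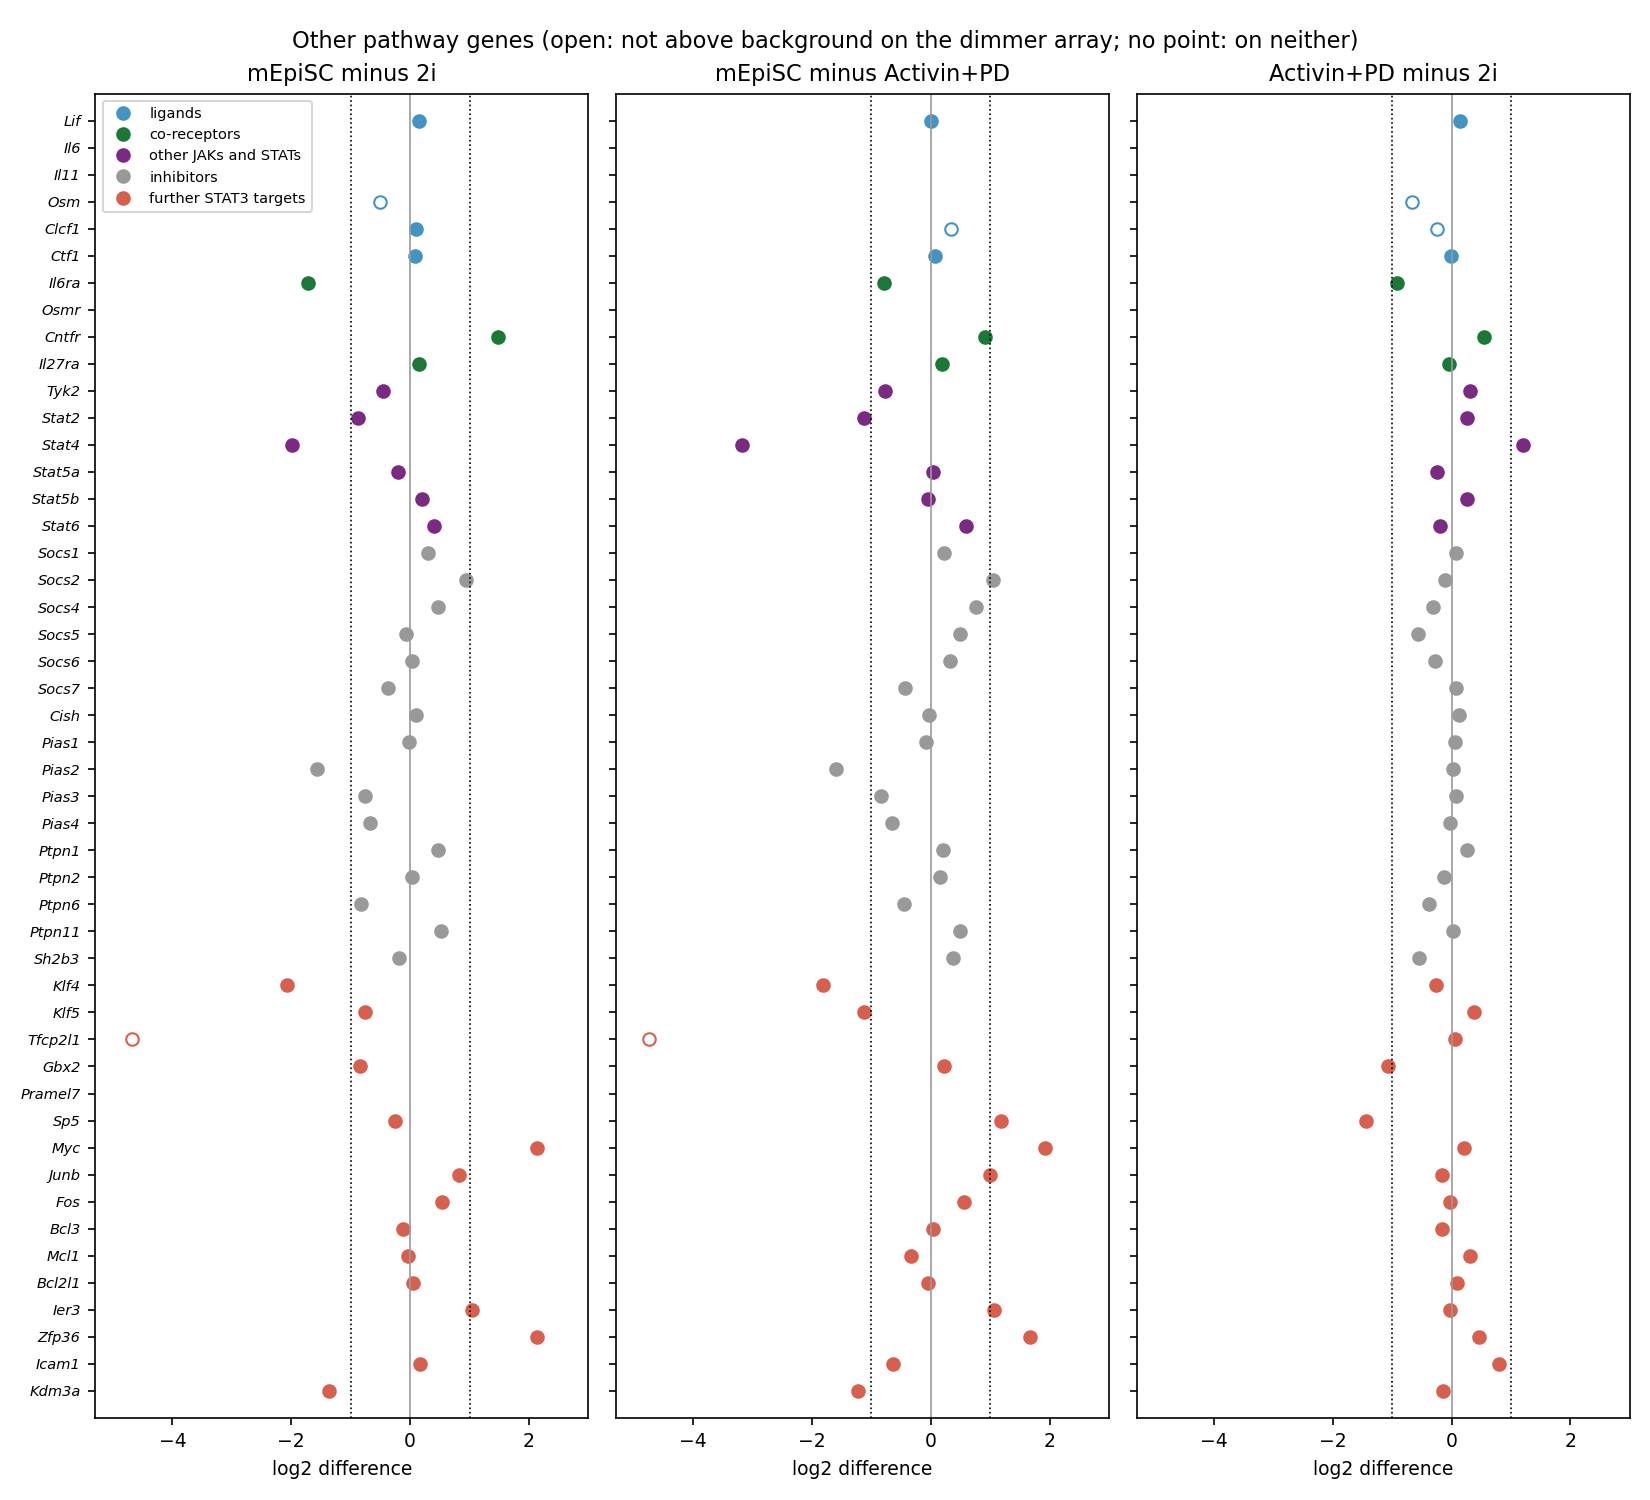
Log2 difference (x axis) of the other pathway genes on the array (y axis) in the 3 comparisons, coloured by list, with dotted lines at 2-fold. Open points were not above background on the dimmer array, and a gene without a point was above it on neither. Stat4 at -3.18 and Tfcp2l1 lie farthest to the left for mEpiSC minus Activin+PD, while in Activin+PD minus 2i only Stat4, Gbx2 and Sp5 pass 2-fold.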

How the data were processed

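Total RNA of 3 cultures was hybridised to 1 array each, so no test was possible and the arrays' number limits the precision. The authors analysed the arrays with GeneSpring GX 11.5, per the series' design text, and RMA (background correction, quantile normalisation and probe set summary), per the submitters' processing notes. The deposited values were intensities on a linear scale, from the values themselves, between 18.9 and 11623 over the arrays, and whether the submitters had added a constant is not stated in the labels. Such a constant would shrink the differences of dim genes.

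From these, log2 was taken and nothing else changed. Of 33793 probe sets, 23521 had 1 gene symbol in the platform annotation, 1814 had several and 8458 were not listed. For 23328 of the probe sets with 1 symbol, the symbol was taken from RefSeq through the Entrez identifier, whether or not it changed. The probe set of highest mean stood for a gene. A gene was compared where the brighter of the 2 arrays was above background, and called apart at 2-fold. The calculation of differences was run on simulated data (Python 3.11.15, numpy 2.4.6, statsmodels 0.14.6 for lowess). Large shifts were planted there in genes well above background, with noise smaller than the probe set yardstick. That run checks the calculation only, and does not bear on dim genes or on the differences reported here. The 9 genes and the lists were chosen with earlier results of these data known. Named were all 9 genes, each pathway gene at least 2-fold apart in any comparison, further pathway genes fixed by name and the 3 nearest profiles of the 3 genes with the widest range.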

Additional observations from a re-analysis of the deposited data

How the results depend on the processing

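Of the 8 alternatives tried (the mean of all probe sets of a gene, 16 subtracted from each intensity, renewed quantile normalisation, median centring, removal of a lowess trend, background at the 99th percentile, no filter, and values below background raised to it), none changed how many of the 9 genes were at least 2-fold apart: 3, 4 and 1 for mEpiSC minus 2i, mEpiSC minus Activin+PD and Activin+PD minus 2i. All 215 recomputed differences of the 9 genes stayed within the probe set yardstick of the value given. Many of them could not move. Because the 9 genes were above background on all 3 arrays, the filter and background alternatives left every value they gave unchanged. The mean of all probe sets could change only Socs3 and Pim1, and median centring shifted all genes of a comparison alike. Socs3 could not be compared between Activin+PD and 2i with the stricter background. For mEpiSC minus Activin+PD, Pim1 ranged from -1.40 to -1.06 (with the mean of its probe sets), and Pim2 from 2.71 to 2.84. The near-zero differences of Stat3 between mEpiSC and 2i (-0.043 to 0.020) and of Lifr between Activin+PD and 2i (-0.011 to 0.011) had no settled sign. With 16 subtracted, 295 of 14003 genes passed 2-fold with the higher value in Activin+PD than in 2i, against 193. The number of other pathway genes apart ranged over 10, 11 to 13 and 2 to 4 in the 3 comparisons. No paired analysis was possible because each group had 1 array. Low signal limits the differences of Socs3, which was under 2 times background on each array.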
